A study of Homo sapiens with 4 samples.

Results

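Matrix metalloproteinases (MMPs) and their tissue inhibitors (TIMPs) were followed in U118-MG cells, an established human glioma line, by RNA sequencing. The set comprises 10 genes taken by symbol from a count table of 61806 genes: the secreted collagenase MMP1, gelatinase MMP2 and stromelysin MMP3, the membrane-type enzymes MMP14, MMP15, MMP16 and MMP17, and the inhibitors TIMP1, TIMP2 and TIMP3. Both groups are labelled wild type. The NC group (2 libraries) was infected with lentivirus carrying the control vector, and the SPNS2 group (2 libraries) with lentivirus carrying the cDNA of SPNS2, an exporter of the signalling lipid sphingosine 1-phosphate, in the pCDH-CMV-MCS-EF1-puro backbone, whose CMV promoter is active in most cell types and not specific to glia. Whether the infected cells were a pool or a clone, and whether a group's 2 libraries are separate cultures, is not stated in the labels. The p-values therefore measure only the spread between these libraries, which may be technical. All 10 genes passed the filter on low counts, and 6 of them differed between the groups, against 23.4% of the 17853 genes tested. That share was not matched for abundance. By mean CPM in NC the members ranked from 50th (MMP14) to 11419th (MMP15) among the tested genes, with TIMP1 378th. The members were chosen with earlier results of these data known, so the comparison with all tested genes is not a blind one.

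MMPs are zinc enzymes that cut the proteins of the extracellular matrix. They are made as inactive proforms whose propeptide blocks the zinc, and they become active once the propeptide is removed, by plasmin and other MMPs for the secreted enzymes and by furin for the membrane-type ones. TIMPs bind the active site and block it, with a twist for TIMP2: a complex of MMP14 and TIMP2 on the cell surface captures proMMP2 and lets a free MMP14 molecule activate it. In gliomas, MMP2 and MMP14 are known for their part in invasion of brain tissue.

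The feature that all 7 MMPs share is the zinc-binding site, in which 3 histidines hold the metal and a glutamate carries out catalysis. The coding stretch of that site is shown for 6 of them because it is the part that TIMPs block, and because it lets the family be compared base by base. Sequences are from GENCODE release 29 transcripts on GRCh38, written 5′ to 3′ on the coding strand, with the codons of the 3 histidines and the glutamate in capitals.
MMP1: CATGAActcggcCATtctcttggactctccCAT
MMP3: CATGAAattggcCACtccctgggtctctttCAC
MMP2: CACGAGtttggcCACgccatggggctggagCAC
MMP14: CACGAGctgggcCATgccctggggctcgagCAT
MMP15: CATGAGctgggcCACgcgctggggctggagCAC
MMP17: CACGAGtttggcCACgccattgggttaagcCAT
The stretch lies within coding exon 5 in MMP1 (chr11:102795549-102795581, minus strand), MMP3 (chr11:102840535-102840567, minus strand), MMP14 (chr14:22843283-22843315, plus strand), MMP15 (chr16:58040563-58040595, plus strand) and MMP17 (chr12:131841659-131841691, plus strand). In MMP2 it lies within exon 8 (chr16:55491827-55491859, plus strand), in a gene of 13 exons where MMP1, MMP3, MMP14, MMP15 and MMP17 have 10. MMP14 and MMP15 had the same base at 28 of the 33 positions, as did MMP2 and MMP15, while MMP1 and MMP2 had the same base at 18. Over whole transcripts, the 10 members and MMP10, MMP11, MMP12, MMP19 and TIMP4 were compared in 105 pairs, and the only pair with an identical run of 50 bases was MMP3 and MMP10, which shared 59 of the 1967 such runs in MMP3. How reads that match both were counted is not given in the sources used here.

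The libraries held 31353373 to 34125159 counts. SPNS2 itself was read 42 and 47 times in NC and 7381 and 8224 times in SPNS2, as the labels say it should be, although these counts do not separate the insert from the endogenous gene. Astroglial identity markers were nearly absent from both groups: GFAP, S100B, AQP4, OLIG2 and SOX2 had 0 to 8 counts in each library, while of the intermediate filament genes VIM was higher in SPNS2 (4392 against 6524 CPM, adjusted p = 0.0205) and NES was lower (18.8 against 10.5 CPM, adjusted p = 0.0243). Summed markers of other cell types were at 5.12 to 8.57 CPM per library for endothelial, 1.22 to 2.7 CPM for epithelial, 10.3 to 19.9 CPM for neuronal and 4347 to 4843 CPM for mesenchymal cells. Within these sums single markers went in opposite directions: PECAM1 was called 2.1-fold higher and VWF 6.31-fold lower among the endothelial ones, SNAP25 3.67-fold higher and SYT1 6.21-fold lower among the neuronal ones, and COL1A1 1.36-fold higher with CHI3L1 2.77-fold lower among the mesenchymal ones. The part of these markers in the results was not tested. CPM are TMM-scaled counts set to a common library size, and each ± is an SD over 2 libraries. In bulk RNA, fewer cells that express a gene and less RNA per cell cannot be told apart. Levels of different genes are compared per length, as CPM per kilobase of annotated exon sequence. That length is the union of all annotated exons of a gene, not the length of the transcripts made, so comparisons between genes depend on it.

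**Figure D1:**
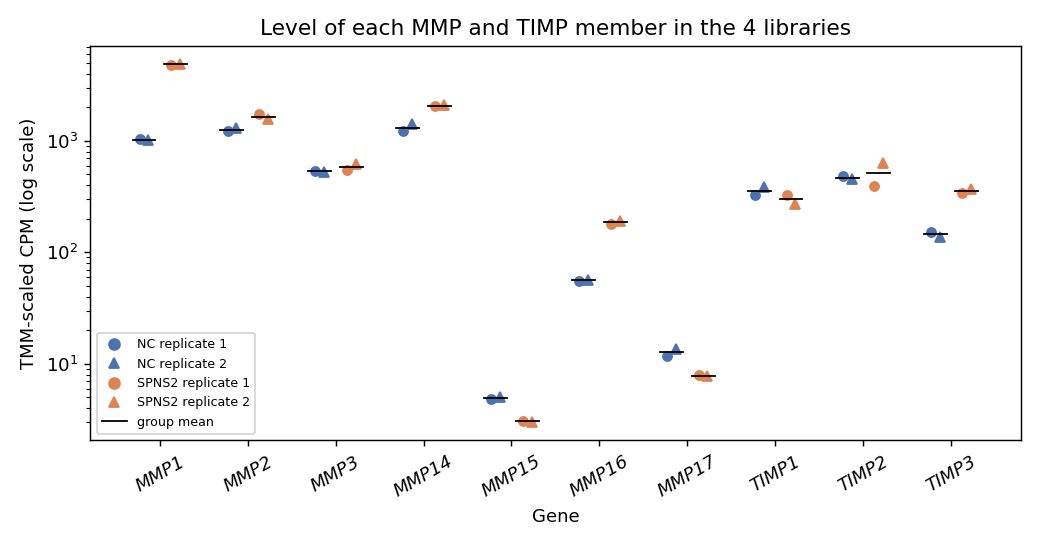
Level of each member in every library, as TMM-scaled CPM on a log axis, with circles for replicate 1, triangles for replicate 2 and bars for group means. The SPNS2 libraries lay above the NC libraries for MMP1, MMP16 and TIMP3 by more than 2-fold, and the 2 SPNS2 libraries stood on either side of the NC libraries for TIMP2.

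Of the 7 MMPs, MMP1, MMP2, MMP14 and MMP16 rose, MMP17 fell, and MMP3 and MMP15 did not pass the test. Of the 3 TIMPs, TIMP3 rose and TIMP1 and TIMP2 did not pass. Across the tested genes 12.1% were called higher and 11.3% lower. The median log2 fold change was 0.26 over the 10 members and -0.0085 over all tested genes. Over the 6 tested genes of the families that are not members it was -1.06, so the median depends on the choice of members. The groups did not overlap at 9 of the 10 members, where they did not overlap at 66% of the genes tested. Calls, here and below, mean an adjusted p below 0.05 (edgeR quasi-likelihood F-test, Benjamini-Hochberg over all tested genes). Of the 5 members that rose, MMP1, MMP16 and TIMP3 did so by at least 2-fold, which 4.34% of the tested genes did.

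MMP1, the interstitial collagenase that cuts fibrillar collagens, was at 1039 and 1008 CPM in NC, against 4805 and 4893 CPM in SPNS2. Both SPNS2 libraries stood far above both NC libraries, and the libraries of a group lay close together. The log2 fold change was 2.24 (SE 0.037, adjusted p = 0.0004), a 4.74-fold rise, and it ranged from 2.22 to 2.27 when each library was left out in turn. MMP1 (ENSG00000196611) lies on the long arm of chromosome 11 (102789920 to 102798160), where the median log2 fold change of 630 tested genes was -0.39 and 26 genes rose while 173 fell. With the median of each chromosome arm taken out, its log2 fold change was 2.64. Per length, MMP1 ranked 34th in NC and 9th in SPNS2 among the 17382 tested genes with an annotated length.

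MMP2 and MMP14, the gelatinase and its membrane-bound activator, both rose by modest folds. MMP2 (ENSG00000087245, chromosome 16, 55389700 to 55506691) was at 1226 and 1294 CPM in NC against 1738 and 1553 CPM in SPNS2. The groups did not overlap, and the log2 fold change was 0.38 (SE 0.070, adjusted p = 0.026). The call was lost without NC replicate 1 (log2 fold change 0.35, adjusted p = 0.102) and without NC replicate 2 (0.42, adjusted p = 0.0763). MMP14 (ENSG00000157227, chromosome 14, 22836557 to 22849027) was at 1214 and 1415 CPM in NC against 2053 and 2075 CPM in SPNS2. Its NC libraries differed from each other more than its SPNS2 libraries did, but both lay below them. The log2 fold change was 0.65 (SE 0.082, adjusted p = 0.0113), and it was called with each library left out, at 0.54 to 0.76. MMP14 is the enzyme that cuts collagen at the cell surface as well as the proform of MMP2.

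MMP16, a membrane-type enzyme related to MMP14 that can also activate proMMP2, showed the second largest rise of the set. It was at 55.3 and 56.6 CPM in NC against 180 and 192 CPM in SPNS2, so that the groups were well apart. The log2 fold change was 1.73 (SE 0.066, adjusted p = 0.0011), a 3.32-fold rise, with 1.69 to 1.79 when a library was left out. The gene (ENSG00000156103) lies on chromosome 8 (88032009 to 88328025), on an arm with a median of 0.062 over 413 genes. Although it is a long transcript with a substantial count, its per-length level in SPNS2 was 15.3 ± 0.66 CPM per kilobase, far below the 462 ± 3.35 of MMP14.

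MMP15 and MMP17, the other membrane-type enzymes, had lower values in both SPNS2 libraries, and MMP17 passed the test. MMP17 (ENSG00000198598, chromosome 12, 131828393 to 131851783), which is held in the membrane by a lipid anchor, was at 11.7 and 13.6 CPM in NC against 7.93 and 7.76 CPM in SPNS2. It fell by 0.69 on the log2 scale (SE 0.15, adjusted p = 0.0404). This call was lost whichever library was left out: leaving out NC replicate 1 or 2 gave an adjusted p of 0.0893 or 0.158, and leaving out SPNS2 replicate 1 or 2 gave 0.125 or 0.134. The call was also lost without a filter on low counts (adjusted p = 0.0651) and with the arm medians taken out (adjusted p = 0.0699). MMP15 (ENSG00000102996, chromosome 16, 58025566 to 58046901) was at 4.87 and 4.99 CPM in NC against 3.09 and 3 CPM in SPNS2, with groups that did not overlap. Its log2 fold change of -0.70 (SE 0.19, adjusted p = 0.0649) was about that of MMP17, and it rested on 95 to 168 counts per library.

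MMP3, a stromelysin that cuts proteoglycans, laminin and fibronectin and can activate proMMP1, did not pass the test. MMP3 (ENSG00000149968, 102835801 to 102843803) was at 534 and 527 CPM in NC against 547 and 625 CPM in SPNS2. The 4 values were close, with the first SPNS2 library nearer to the NC libraries than to its own pair. The log2 fold change was 0.14 (95% interval -0.06 to 0.35, adjusted p = 0.251). With the arm medians taken out it was 0.54 and passed the test (adjusted p = 0.0178), so its standing depends on whether the level of 11q is taken as the reference. The ratio of MMP1 to MMP3 counts, which needs no scaling between libraries, was 1.95 and 1.91 in NC and 8.78 and 7.83 in SPNS2 (exact permutation test, two-sided p = 0.333, the smallest that 2 against 2 libraries allows).

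**Figure D2:**
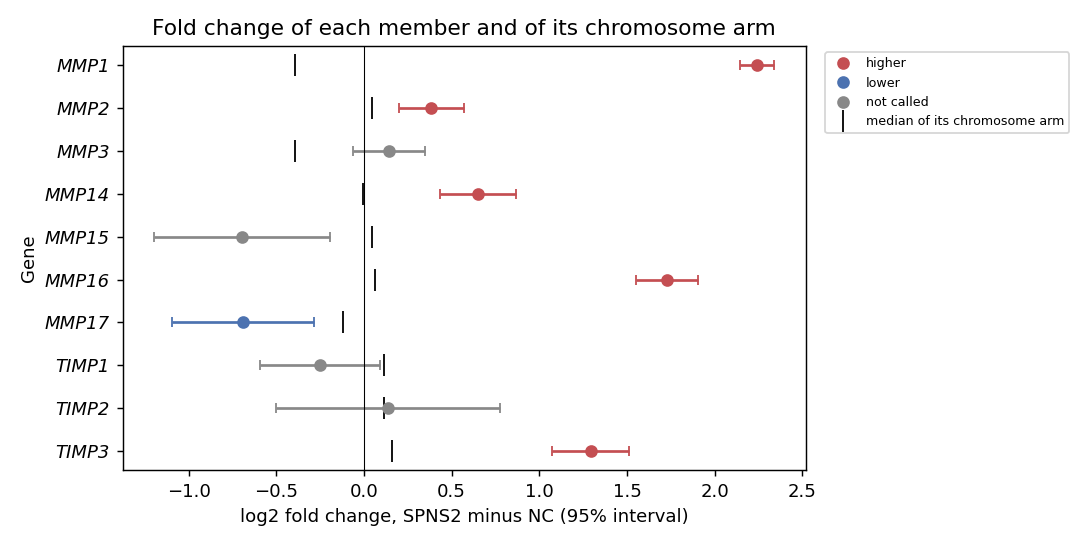
Log2 fold change of each member (SPNS2 minus NC, points with 95% intervals that are not adjusted for the number of genes), coloured by call, with a black tick at the median of its chromosome arm. MMP1 stands at 2.24 against an arm median of -0.39, TIMP2 lies close to its arm median of 0.12 with the widest interval of the 10, and MMP15 and MMP17 lie side by side near -0.70.

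Of the inhibitors among the members, TIMP3 alone passed the test. TIMP3, which unlike the other TIMPs binds tightly to the matrix and also blocks ADAM17, was at 153 and 136 CPM in NC against 342 and 366 CPM in SPNS2. Both SPNS2 libraries were more than 2-fold above both NC libraries. The log2 fold change was 1.29 (SE 0.082, adjusted p = 0.0028), with 1.21 to 1.38 when a library was left out. TIMP3 (ENSG00000100234, chromosome 22, 32801701 to 32863043) lies inside SYN3, a synapsin gene read from the opposite strand. SYN3 had 46 and 49 counts in NC and 110 and 87 in SPNS2, against 4585 to 12216 for TIMP3, and the exons of the pair do not overlap.

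TIMP1, a secreted inhibitor of most soluble MMPs, was at 329 and 383 CPM in NC against 328 and 270 CPM in SPNS2. NC replicate 1 and SPNS2 replicate 1 were nearly equal, and the log2 fold change of -0.25 did not pass the test (95% interval -0.59 to 0.09, adjusted p = 0.233). TIMP1 (ENSG00000102265, chromosome X, 47582313 to 47586789) lies within SYN1, read from the opposite strand, which had 0 to 11 counts per library. TIMP2 (ENSG00000035862, chromosome 17, 78852977 to 78925387) was at 481 and 451 CPM in NC against 391 and 635 CPM in SPNS2. The SPNS2 libraries differed 1.62-fold from each other, a gap that 3.94% of 9477 genes with at least 10 CPM in both groups exceeded. The log2 fold change was 0.14 (95% interval -0.50 to 0.78, adjusted p = 0.721). Leaving out SPNS2 replicate 1 gave 0.46 (adjusted p = 0.0354), leaving out the other one gave -0.25 (adjusted p = 0.112), so these data do not settle the direction of TIMP2. CEP295NL, which overlaps an exon of TIMP2 on the same strand, had 6 to 19 counts per library, and an antisense gene across a TIMP2 exon (ENSG00000267601) had 105 and 159 counts in NC and 174 and 183 in SPNS2.

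Of 12 genes that overlap or lie beside the members, 9 could be tested, of which 2 rose and 1 fell. Their median log2 fold change was 0.30, and 33.3% of those tested were called against 23.4% of all tested genes. LPCAT2, a phospholipid enzyme next to MMP2, was at 23.3 ± 1.37 CPM in NC against 40.2 ± 0.99 CPM in SPNS2 (adjusted p = 0.0112), a call lost without NC replicate 1 (adjusted p = 0.0533). LGALS3BP, a secreted glycoprotein gene near TIMP2, was at 62 ± 0.79 and 48.4 ± 1.52 CPM (adjusted p = 0.0341), and ELK1, a transcription factor near TIMP1, at 65.3 ± 1.81 and 80.2 ± 0.047 CPM (adjusted p = 0.0386). Neither was called with any library left out (adjusted p = 0.104 to 0.133 and 0.117 to 0.154).

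The upstream sequences are shown for MMP14 and TIMP3, the 2 called members that have an entry in the RefSeq promoter windows (GRCh38.p14, 4 of the 10 members matched). Each runs from 250 bases before the RefSeq start to the base before the first annotated transcript, plus strand, with GC boxes (GGGCGG or its reverse complement) in capitals.
MMP14: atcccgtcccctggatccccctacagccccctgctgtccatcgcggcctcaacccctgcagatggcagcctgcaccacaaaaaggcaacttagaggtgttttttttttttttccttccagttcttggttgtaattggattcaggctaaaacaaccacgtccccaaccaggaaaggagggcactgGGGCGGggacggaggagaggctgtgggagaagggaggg
TIMP3: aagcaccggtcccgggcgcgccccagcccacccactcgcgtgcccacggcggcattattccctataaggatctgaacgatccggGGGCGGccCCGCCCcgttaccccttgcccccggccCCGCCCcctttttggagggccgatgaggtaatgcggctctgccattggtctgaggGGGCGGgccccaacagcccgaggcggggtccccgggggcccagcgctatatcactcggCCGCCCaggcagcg
The MMP14 stretch (chr14:22836335-22836556) holds 1 GC box and the TIMP3 stretch (chr22:32801455-32801700) holds 5. A GC box occurs on either strand in 42.6% of the 250-base windows of 35116 genes, and TIMP1 has 2 and MMP15 has 5 in theirs. The AP-1 motif TGAGTCA, found in 4.2% of windows, and the EGR1 motif GCGTGGGCG, found in 0.72%, had no match in these 4 windows on either strand. With motifs this rare, no match in 4 windows says little. MMP1, MMP2, MMP3, MMP16, MMP17 and TIMP2 had no window, so their promoters were not searched. The EGR1 motif can overlap a GC box. Such a match is only a run of letters, not a bound site.

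The make-up of the MMP transcripts differed between the groups. Per length, MMP1 made up 40.1% and 37.7% of the summed level of the 7 MMPs in NC, against 69% and 69.2% in SPNS2. MMP14 went from 22 ± 1.92% to 13 ± 0.038%, MMP2 from 19.1 ± 0.33% to 9.37 ± 0.84% and MMP3 from 19.4 ± 0.59% to 8.03 ± 0.67% of the sum (SD, n = 2). In level, however, MMP14 and MMP2 were called higher and MMP3 was not called. MMP15, MMP16 and MMP17 together stayed a minor part, with MMP16 at 0.346 ± 0.0017% in NC and 0.431 ± 0.014% in SPNS2. The groups did not overlap in the MMP1 share, and the exact permutation test, two-sided, gave p = 0.333, its smallest value with 2 against 2 libraries.

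**Figure D3:**
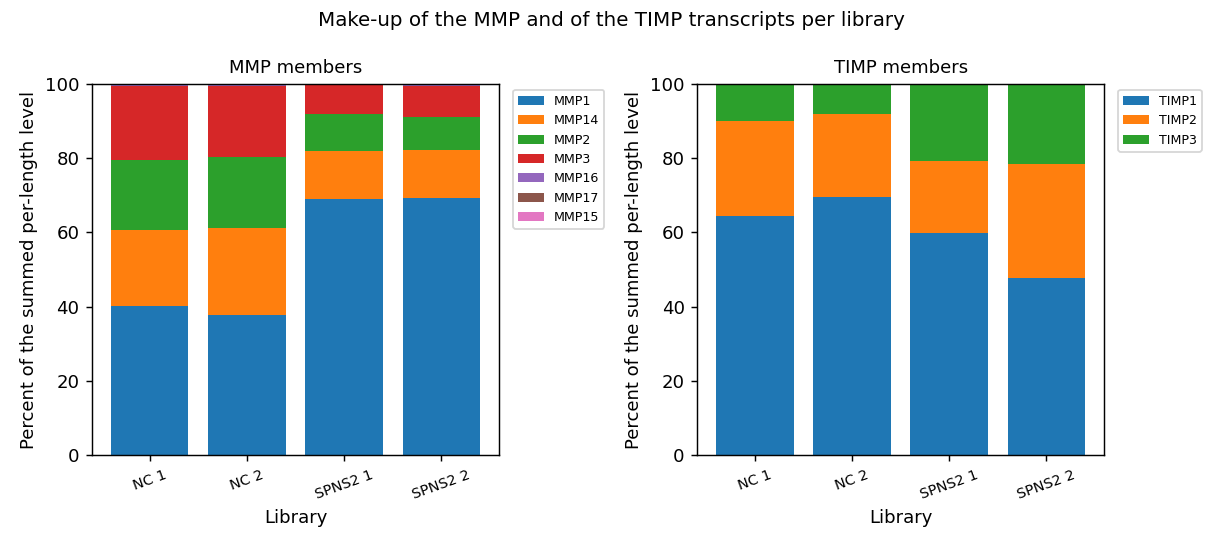
Percent of the summed per-length level taken by each MMP (left) and each TIMP (right) in every library. MMP1 fills 37.7% to 40.1% of the MMP bars in NC and 69% to 69.2% in SPNS2, and TIMP3 fills 8.27% to 9.99% of the TIMP bars in NC and 20.8% to 21.6% in SPNS2.

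Among the inhibitors TIMP1 was the most abundant per length in every library. Its share of the 3 TIMPs was 64.3% and 69.4% in NC and 59.7% and 47.7% in SPNS2, while TIMP3 went from 9.99% and 8.27% to 20.8% and 21.6%. The summed per-length level of the 7 MMPs was 3.97 and 3.79 times that of the 3 TIMPs in NC and 9.92 and 9.76 times in SPNS2. The size of these multiples rests on the union exon lengths and would differ with transcript lengths. For the pair of the collagenase and its main soluble inhibitor, MMP1 counts were 3.16 and 2.63 times those of TIMP1 in NC and 14.6 and 18.1 times in SPNS2. The ratio of TIMP3 to TIMP1 counts was 0.464 and 0.356 in NC and 1.04 and 1.35 in SPNS2. Neither MMP to TIMP ratio overlapped between the groups, and each gave p = 0.333 in the exact permutation test, two-sided. Ratios of transcripts say nothing of the balance between active enzyme and free inhibitor.

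The components of the complex that activates proMMP2 did not give one picture. The ratio of MMP14 to TIMP2 counts was 2.52 and 3.14 in NC and 5.25 and 3.27 in SPNS2 (exact permutation p = 0.333, two-sided). The ratio of MMP2 to TIMP2 counts was 2.55 and 2.87 in NC and 4.45 and 2.45 in SPNS2, and overlapped (exact permutation p = 1, two-sided). In both ratios SPNS2 replicate 1, the library with the lower TIMP2, was the higher.

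In NC the order of per-length levels, in CPM per kilobase, was MMP1 (520 ± 11.5), MMP14 (294 ± 31.8), MMP3 (259 ± 2.51), MMP2 (255 ± 9.82), TIMP1 (231 ± 24.9), TIMP2 (82.7 ± 3.78), TIMP3 (31.4 ± 2.51), MMP16 (4.62 ± 0.074), MMP17 (3.16 ± 0.33) and MMP15 (1.12 ± 0.02). MMP3 and MMP2 overlapped there, and MMP2 and TIMP1 differed by about 1 SD of TIMP1. In SPNS2 the order was MMP1 (2461 ± 31.9), MMP14 (462 ± 3.35), MMP2 (334 ± 26.5), MMP3 (286 ± 26.8), TIMP1 (194 ± 26.5), TIMP2 (91.1 ± 30.7), TIMP3 (76.9 ± 3.76), MMP16 (15.3 ± 0.66), MMP17 (1.96 ± 0.029) and MMP15 (0.688 ± 0.014). TIMP2 and TIMP3 overlapped in SPNS2 but not in NC, and MMP2 and MMP3 changed places with less than 2 SD between them. The SDs do not cover the choice of length. TIMP1 has 1541 bases of annotated exon, but the transcript compared above held 843 distinct runs of 50 bases. For MMP1 these were 1970 bases and 1921 runs. The order by transcript length was not computed and may differ, above all in the place of TIMP1.

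The other genes of the families were scarce. Of 18 further genes, which are TIMP4 and the MMPs that are not members, 6 could be tested. Of these 1 rose and 2 fell, so 50% were called against 23.4% of all tested genes. The genes not tested had at most 10 counts in any library. MMP12, the elastase of macrophages, had 132 and 196 counts in NC and none in either SPNS2 library, at least 106-fold lower when the SPNS2 group is given a floor of 3 counts in all (adjusted p = 0.0062). The leukocyte markers PTPRC (4 and 10 counts in NC, 0 and 7 in SPNS2), AIF1 (0 in all) and ITGAM (10 and 15, then 0 and 2) were at or near 0 throughout, while CD68, a lysosomal protein, was at 120 CPM in NC against 70.9 CPM in SPNS2. The sum of the 5 leukocyte markers, nearly all of it CD68, was 111 to 130 CPM in NC against 65.9 to 76.2 CPM in SPNS2, and its part in the MMP12 difference was not tested. MMP11, stromelysin 3, rose from 1.12 and 1.19 CPM to 4.06 and 3.78 CPM (log2 fold change 1.76, SE 0.24, adjusted p = 0.013), a call that was lost with any library left out (adjusted p = 0.0614 and 0.057 for NC replicates 1 and 2, 0.0546 and 0.0516 for SPNS2 replicates 1 and 2).

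TIMP4, the remaining inhibitor of the family, fell. It was at 8.14 and 8.2 CPM in NC against 3.44 and 3.09 CPM in SPNS2, with a log2 fold change of -1.32 (SE 0.18, adjusted p = 0.0127). The call was lost without NC replicate 1 (adjusted p = 0.058), NC replicate 2 (0.059) or SPNS2 replicate 2 (0.0511). MMP10, the stromelysin that shares runs of bases with MMP3, had 40 and 33 counts in NC and 0 and 6 in SPNS2 and did not pass (adjusted p = 0.0869), but it was called without SPNS2 replicate 2 (adjusted p = 0.0432) and by DESeq2 (adjusted p = 0.0343). MMP19 was at 9.02 ± 0.44 CPM in NC against 5.2 ± 0.87 CPM in SPNS2 (adjusted p = 0.051). It was called lower in 6 of 14 alternatives, with adjusted p from 0.0296 (DESeq2) to 0.171 (without NC replicate 1) over all of them. MMP24 was at 3.13 ± 0.95 and 2.79 ± 0.46 CPM (adjusted p = 0.748).

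MMP1, MMP3, MMP10 and MMP12 belong to a cluster of MMP genes on 11q, and genes on either side of it were lower in SPNS2. Of 18 genes in and around the cluster, 11 could be tested, MMP1 alone was called higher and 5 were called lower. Their median was -0.39, as on the whole arm, and 54.5% of those tested were called against 23.4% of all tested genes. BIRC3, an inhibitor of apoptosis, was at 171 ± 16.7 CPM in NC against 79.1 ± 7.52 CPM in SPNS2 (adjusted p = 0.0065). On the far side, DCUN1D5 was at 55.8 ± 5.71 and 31 ± 0.86 CPM (adjusted p = 0.0112) and DYNC2H1, a motor protein of cilia, at 156 ± 6.62 and 103 ± 5.63 CPM (adjusted p = 0.0107). The call of DCUN1D5 was lost without SPNS2 replicate 1 (adjusted p = 0.0532) and that of DYNC2H1 without NC replicate 1 (adjusted p = 0.0538). Both calls were also lost with the arm medians removed, where the log2 fold change of DCUN1D5 went from -0.85 to -0.46 (adjusted p = 0.0525) and that of DYNC2H1 from -0.60 to -0.20 (adjusted p = 0.133). YAP1 was at 375 ± 10.5 and 315 ± 7.18 CPM (adjusted p = 0.0373), a call lost with any library left out (adjusted p = 0.0899 to 0.15) and whose log2 fold change turned from -0.25 to 0.14 with the arm medians removed. With the arm medians removed, MMP1 (2.64, adjusted p = 0.00027), MMP12 (adjusted p = 0.0078) and BIRC3 (-0.72, adjusted p = 0.0199) were still called in the same direction. WTAPP1, whose exons overlap those of MMP1 and MMP3 on the opposite strand, had 0 counts in 3 libraries and 2 in the fourth.

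**Figure D4:**
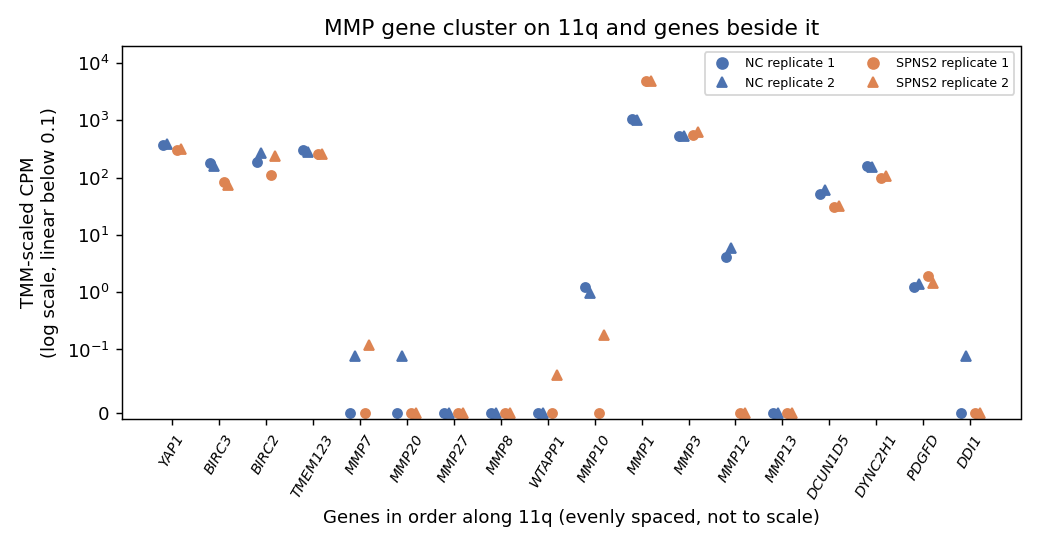
TMM-scaled CPM of 18 genes in and beside the MMP cluster on 11q in each library, in chromosomal order, on an axis that is logarithmic above 0.1 and linear below. MMP1 is the one gene with both SPNS2 libraries well above NC, MMP12 drops from 4.12 and 5.82 CPM to 0, and BIRC3, DCUN1D5 and DYNC2H1 lie lower in SPNS2.

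In a list drawn up around MMP activation and binding at the cell surface, 5 of 15 tested genes rose, 3 fell and 7 were not called. Not every gene of the list need promote activation. The median log2 fold change of the list was 0.23, and 53.3% of those tested were called against 23.4% of all tested genes. PLAU, urokinase, which makes plasmin and so can open proMMP1 and proMMP3, was at 443 ± 1.73 CPM in NC against 737 ± 29.3 CPM in SPNS2 (adjusted p = 0.0031). Its receptor PLAUR rose 1.96-fold from 96.9 ± 1 CPM (adjusted p = 0.0023), and the plasmin precursor PLG had no counts in any library. FURIN, which opens the membrane-type MMPs, was at 86.5 ± 3.61 and 104 ± 6.21 CPM and did not pass (adjusted p = 0.0763), though it did with the arm medians taken out (adjusted p = 0.0227), while the related convertase PCSK5 rose from 0.818 ± 0.23 to 3.77 ± 0.18 CPM (adjusted p = 0.0148). The PCSK5 call was lost without NC replicate 1 (adjusted p = 0.054), SPNS2 replicate 1 (0.0521) or SPNS2 replicate 2 (0.0625). SPOCK1, a testican proteoglycan whose relatives SPOCK2 and SPOCK3 were placed in the list of inhibitors, rose 3.32-fold to 244 ± 12.1 CPM (adjusted p = 0.0011). SPOCK1 lies on 5q, where 239 genes rose and 30 fell (median log2 fold change 0.43). With the arm medians taken out its log2 fold change went from 1.73 to 1.30, still called. CTSL, cathepsin L, fell 2.07-fold from 851 ± 2.95 CPM (adjusted p = 0.0021), and CLDN1, a claudin that can bind proMMP2 and MMP14, fell 4.06-fold to 1.08 ± 0.0049 CPM (adjusted p = 0.0092).

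Among other inhibitors and clearance receptors, 2 of 9 tested rose, 5 fell and 2 were not called (median -0.30). That is 77.8% called, against 23.4% of all tested genes. The highest fold change was that of THBS1, thrombospondin 1, at 124 ± 3.86 against 1963 ± 12.3 CPM (adjusted p = 0.00028). TFPI2, a matrix-bound inhibitor of plasmin and of some MMPs, rose from 1053 ± 1.17 to 2050 ± 105 CPM (adjusted p = 0.002). RECK, a membrane-anchored inhibitor of MMP2, MMP9 and MMP14, was at 29.7 ± 1.47 and 31.4 ± 2.01 CPM (95% interval of the log2 fold change -0.20 to 0.36, adjusted p = 0.636). SERPINE2, an inhibitor of urokinase and thrombin, fell 3-fold from 5350 ± 411 CPM (adjusted p = 0.0033). PCOLCE, which speeds the processing of procollagen, fell 1.54-fold to 158 ± 7.45 CPM (adjusted p = 0.0064).

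Of 18 transcription factors known for MMP promoters, 5 rose, none fell and 13 were not called (median 0.012). That is 27.8% called, close to the 23.4% of all tested genes. JUN, a partner in AP-1, was at 359 ± 20 CPM in NC against 606 ± 38.5 CPM in SPNS2 (adjusted p = 0.0062). ETS1 and ETS2 rose 1.86- and 1.88-fold to 222 ± 5.43 and 128 ± 2.77 CPM (adjusted p = 0.0044 and 0.003). EGR1 rose 3.54-fold to 71.5 ± 9.05 CPM (adjusted p = 0.0043). It lies on 5q, and its log2 fold change went from 1.82 to 1.39 with the arm medians taken out, still called. The FOS-family partners FOSL1 (327 ± 21.8 and 382 ± 10 CPM, adjusted p = 0.0836), FOSL2 (220 ± 3.59 and 215 ± 0.75 CPM, adjusted p = 0.724) and FOS (2.79 ± 0.12 and 2.04 ± 0.082 CPM, adjusted p = 0.236) did not pass. With the arm medians taken out, FOSL1, which lies on 11q, was called higher (adjusted p = 0.0094). ETV4 was called in the fit of all libraries (adjusted p = 0.0323) but not with any library left out (adjusted p = 0.053 to 0.127).

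A further list held cytokines, growth factors and receptors known to act on MMP expression. Among them were inducers, the antagonist IL1RN and the TGF-beta genes, which can repress MMP1 and MMP3. Of 11 tested, 3 were higher, 2 lower and 6 not called (median -0.20), so 45.5% were called against 23.4% of all tested genes. IL1B, interleukin 1 beta, rose 14.5-fold to 38.5 ± 0.78 CPM (adjusted p = 0.00093). HBEGF, a ligand of the EGF receptor, rose 2.7-fold to 62 ± 0.62 CPM (adjusted p = 0.0022). The oncostatin M receptor OSMR rose 1.64-fold to 196 ± 7.69 CPM (adjusted p = 0.0048). HBEGF lies on 5q (median log2 fold change 0.43) and OSMR on 5p (median 0.30). With the arm medians taken out, HBEGF went from 1.43 to 1.00 and OSMR from 0.71 to 0.41, and both were still called. The cytokine IL6 was lower, at 8.26 ± 0.88 and 3.88 ± 0.4 CPM (adjusted p = 0.0244), as was TGFB2, a TGF-beta ligand, at 25.3 ± 1.19 and 13.9 ± 0.2 CPM (adjusted p = 0.0112). Neither IL6 (adjusted p = 0.066 to 0.099) nor TGFB2 (adjusted p = 0.0507 to 0.0588) was called with any library left out.

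Of 22 matrix proteins that MMPs can cut, 7 rose, 10 fell and 5 were not called (median -0.042). That is 77.3% called, against 23.4% of all tested genes. The chains of collagen I, the main substrate of MMP1, gave COL1A1 at 1363 ± 26.9 CPM in NC against 1851 ± 23.3 CPM in SPNS2 (adjusted p = 0.0048) and COL1A2 at 1917 ± 92.8 and 1912 ± 71.2 CPM (adjusted p = 0.967). DCN, the collagen-binding proteoglycan decorin, fell from 609 ± 131 to 18.6 ± 3.99 CPM (adjusted p = 0.0019), and ELN, elastin, from 14.7 ± 1.45 to 0.187 ± 0.011 CPM (adjusted p = 0.0011). FBN1, fibrillin 1, fell 2.38-fold to 1007 ± 8.14 CPM (adjusted p = 0.0011), TNC, tenascin C, fell 1.74-fold to 2126 ± 5.93 CPM (adjusted p = 0.0014) and COL5A1 fell 1.96-fold to 108 ± 0.39 CPM (adjusted p = 0.003). LAMB1, a laminin chain, rose 1.8-fold to 608 ± 14.1 CPM (adjusted p = 0.0022).

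Over the 4 libraries, the genes most like MMP1 in centred log2 CPM, among tested genes with a mean of at least 5 on that scale, were SPHK1 (distance 0.162), EPHB2 (0.166) and STC1 (0.167), with log2 fold changes of 2.19, 2.15 and 2.10. SPHK1 makes sphingosine 1-phosphate, EPHB2 is an ephrin receptor and STC1 is a secreted glycoprotein. The genes most like TIMP3 were DBN1 (0.0478), an actin-binding protein, FGFRL1 (0.0527), a receptor-like protein that binds FGFs, and NRIP1 (0.0814), a nuclear receptor corepressor. With 4 libraries in 2 groups, this measure reflects little beyond the size of the difference between the groups.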

How the data were processed

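Total RNA of 4 libraries (NC and SPNS2, 2 each) was analysed. The authors deposited a table of raw gene counts, without normalization. Per the submitters' processing notes, Trim Galore 0.6.9, HISAT2 2.2.1, featureCounts 0.3 and hg38 were used; their settings, the annotation release and the strand mode are unknown here. 1 row without counts was dropped. Library totals were 31513400, 32992150, 31353373 and 34125159.

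Genes were kept by filterByExpr (minimum count 10, minimum total 15), scaled by TMM and tested with edgeR 4.0.16 (R 4.3.3, glmQLFit and glmQLFTest, two-sided, group as the only term), with Benjamini-Hochberg adjustment over 17853 genes. The SE is the log2 fold change over the root of its F statistic; 95% intervals use the t quantile of the fit. A floor of 3 counts over a group covers counting error only. Positions and union exon lengths come from GENCODE release 29 on GRCh38, the assembly of hg38. Alternatives were DESeq2 1.42.0, limma-voom (limma 3.58.1), a robust fit, other scalings and filters, a replicate block, arm medians removed (divided at approximate centromere positions) and leaving out each library.

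In simulated counts over 17031 genes for SPNS2 against NC, the test made 107 calls, 6 of them false. It called 8% of 50 genes changed 1.5-fold, 38% at 2-fold, 70% at 4-fold and 86% at 8-fold. The data gave 4171 calls. With fewer calls the adjustment is stricter, so the simulated shares do not carry over to the real comparison. Libraries of a group differed beyond counting noise (chi-square per degree of freedom 29.9 in NC, 35.1 in SPNS2). The members and gene lists were chosen with earlier results of these data known. Named are the members, the other MMP and TIMP genes, genes beside or overlapping members where a result turns on them, up to 6 called genes with the smallest p of each other list, and the 3 genes nearest to MMP1 and TIMP3 in centred log2 CPM. FURIN, PLG, RECK, FOS, FOSL1, FOSL2, COL1A1 and COL1A2 fall outside that rule and were chosen after their values were seen.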

Additional observations from a re-analysis of the deposited data

How the results depend on the processing

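Of 140 refits of the 10 members, 127 kept direction and side of the threshold, 10 lost a call, 2 gained one and 1 reversed (TIMP2, between -0.25 without SPNS2 replicate 2 and 0.46 without SPNS2 replicate 1). MMP1, MMP14, MMP16 and TIMP3 were called in all 14 alternatives. The number of called members was 4 to 6 over all of them and 4 to 6 with a library left out, with 4 to 6 higher. The 1 member called lower, MMP17, became 0 without a low-count filter, with the replicate block, with arm medians removed and with any library left out (0 to 0). Over all genes, 4171 calls became 1976 with the replicate block and 1712 to 2144 with a library left out, each of which has fewer residual degrees of freedom. With the block MMP2 had an adjusted p of 0.0676 and MMP17 of 0.0935. The labels do not say whether same-numbered libraries are paired. Their deviations correlated at -0.050 across genes, which with 2 libraries per group does not decide it. The difference in the MMP1 share was 30.2 percentage points per length, 27.5 by counts and 29.1 to 31.4 with a library left out, and the MMP1 to TIMP1 ratio rose 5.65-fold, with 5.06 to 6.25. Upper-quartile factors and library totals gave 1912 and 1852 genes higher against 2225 and 2289 lower, where TMM gave 2161 and 2010. Among the 64 other named genes, 14 of 894 refits reversed, none of them in a gene called by edgeR except YAP1 (0.14 with arm medians removed). With arm medians removed, TMEM123 also reversed to 0.23, BIRC2 to 0.0067, RECK to -0.067 and FOSL2 to 0.14. With a library left out, MMP24 ranged from -0.44 (NC replicate 1) to 0.18 (NC replicate 2), with 0.0086 without SPNS2 replicate 1, BIRC2 from -1.06 to 0.091, CEP295NL from -0.85 to 1.01, with 0.43 without SPNS2 replicate 2, and COL1A2 from -0.055 to 0.046, with 0.037 without SPNS2 replicate 2. CEP295NL also reversed with limma-voom (0.014) and COL1A2 with DESeq2 (0.0011). The cause of these changes was not tested. MMP10 had 0 to 40 counts per library and MMP15 95 to 168.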
